A study of Mus musculus with 20 samples.

Results

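The serpins are a family of protein inhibitors of proteases, and 7 of their genes were followed across the 5 groups of bone cells of this series: Serpina1a, Serpina1b, Serpina3g, Serping1, Serpinf1, Serpinh1 and Serpine2. They were taken by gene symbol from the authors' filtered expression table, where all 7 were present, and they are 7 of the 9129 genes and 12 of the 12357 probe sets with a symbol. The cells came from collagenase-digested bone of untreated wild type male C57BL6 mice aged 8 weeks. All 5 groups were sorted as negative for blood lineage markers (Lin) and for the endothelial protein CD31, and positive for CD51, the integrin alpha-v chain. Groups A, B, AB and DN were also negative for Sca-1. Group A carried PDGFRa without PDGFRb, group B carried PDGFRb without PDGFRa, and group AB carried both receptors. Group DN was PDGFRa-negative. Group SL had low Sca-1 and was PDGFRa-negative. For DN and SL the sample titles give the second receptor as PDGFR-+, whose sign is unclear, and only the code DN marks that group as negative for both. Each group had 4 arrays, 20 in all, and nothing in the labels ties a replicate to an animal of its own. The p-values therefore speak of the spread among arrays, which may be technical. Levels are normalized log2 signal, and differences are limma's log2 differences ± SE with n = 4 arrays per group and p-values adjusted by Benjamini-Hochberg over 9129 genes.

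Most serpins trap a protease as a suicide substrate: the protease cuts an exposed loop, the serpin folds around it, and the locked complex is cleared by endocytic receptors. A few members have lost that activity and serve other purposes, such as the collagen chaperone encoded by Serpinh1. In bone the family touches collagen folding, mineralization, complement control and the neutrophil proteases of the neighbouring marrow.

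Array medians lay between log2 6.40 and 6.46. Transcripts of the gates did not always follow the gate: Pdgfra was at 10.24 ± 0.11 (SD, n = 4) in SL and 9.03 ± 0.41 in B, both sorted as PDGFRa-negative, against 9.01 ± 0.097 in A and 7.87 ± 0.30 in DN. Osteoblast markers were present in every group, with 9 of 12 measured and a mean of 9.03 in SL to 10.44 in A. Chondrocyte markers, 13 of 15 measured, averaged 11.68 in DN, 11.38 in A, 9.503 in B, 9.12 in SL and 8.82 in AB. Neutrophil lineage markers, 15 measured of 19 symbols listed (old and new names included), averaged 9.18 in DN, 9.80 in A, 10.37 in B, 9.68 in AB and 9.23 in SL. None of 11 B lineage markers was in the filtered table. Replicates 3 and 4 of B stood apart in markers of Sca-1-positive fibroblasts (10 of 11 measured), at 10.47 and 10.86 against 9.04 and 8.85, and the Sca-1 transcript Ly6a varied in B and AB (SD 2.0 and 1.4). With B and AB reduced to replicates 1 and 2, the calls that were lost are given beside their results. In sorted bulk cells, fewer cells of a type and less RNA per cell cannot be told apart.

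The 7 genes split into 3 patterns. The alpha-1-antitrypsin genes Serpina1a and Serpina1b were highest in DN and A and lowest in AB, Serpina3g was highest in AB, and Serping1, Serpinf1 and Serpine2 were lowest in DN. Serpinh1 was nearly level. The distance between the highest and the lowest group mean was log2 5.77 for Serpina1b and 5.35 for Serpina1a, the 2nd and 5th largest of 9129 genes, and 4.16 for Serpina3g, the 19th. It was 2.57 for Serping1, 1.32 for Serpinf1, 0.70 for Serpine2 and 0.21 for Serpinh1, where the median gene had 0.42. A moderated F test over the 5 groups called 6 of the 7 genes, Serpinh1 being the exception (adjusted p = 0.0769), beside 50.6% of all genes.

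**Figure D1:**
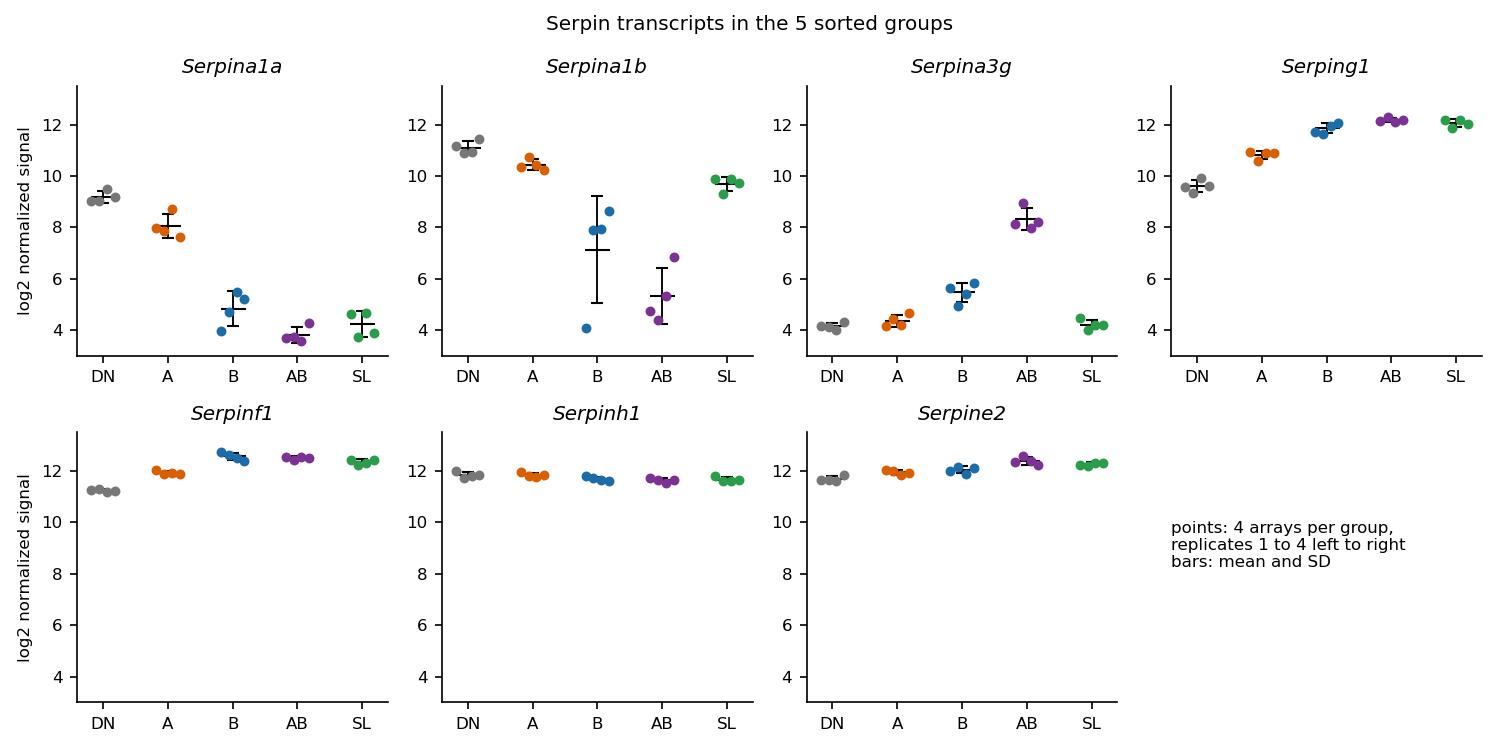
Normalized log2 signal of each serpin (vertical axis) on the 4 arrays of each sorted group, with the group mean and SD as bars. Serpina1a and Serpina1b are highest in DN and lowest in AB, Serpina3g is highest in AB with B next, and 1 B array of Serpina1b sits at 4.07.

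Between pairs of groups, all 7 genes passed the test in AB against DN, 4 higher and 3 lower, where 46.1% of all genes passed. Of all genes 24.7% were higher there and 21.4% lower. In B against DN 6 serpins passed (45.7% of all genes) and in SL against DN 4 (45.2%). In A against DN 3 passed (3.53%), 2 higher (2.89%) and 1 lower (0.635%). Against A, 5 passed in B (29.7%), 6 in AB (32.9%) and 4 in SL (32.6%). In AB against B only Serpina3g passed (1.52% of all genes), in SL against B 2 genes (12.5%) and in SL against AB 2 genes (9.34%). The comparisons share the arrays of their reference groups, so these counts are not independent of each other. The shares of all genes given here are also the background for counts of listed genes in the same pairs below. The median difference of the 7 genes in AB against DN was 0.70, beside 0.0385 over all genes, and the members lie on both sides of it.

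**Figure D2:**
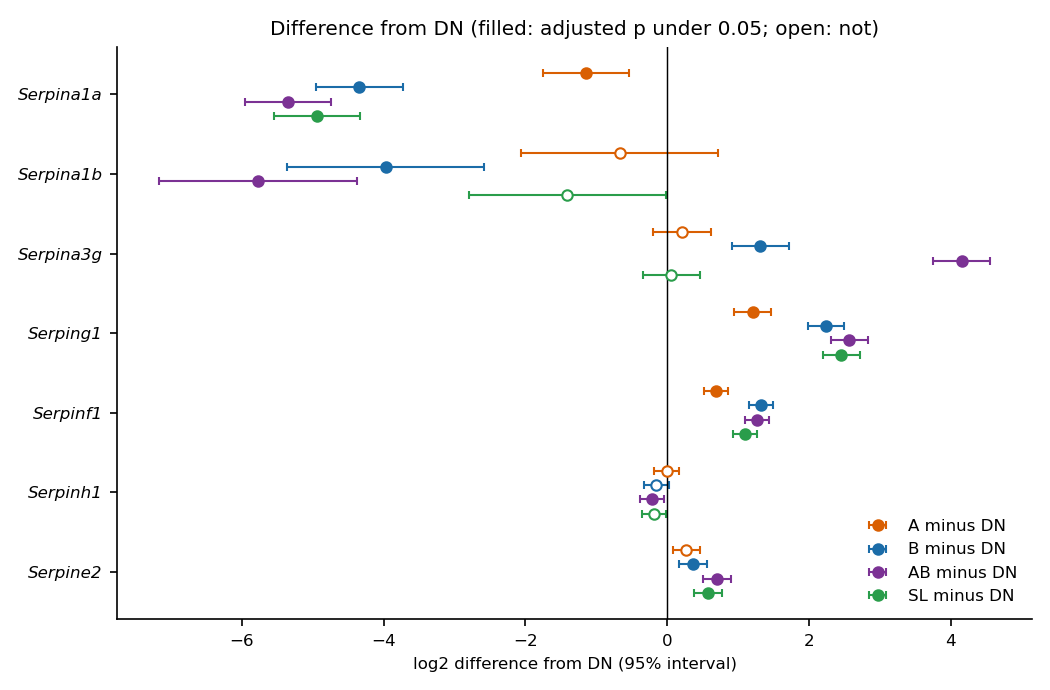
Log2 difference of each serpin from DN (horizontal axis, 95% interval) in groups A, B, AB and SL, with filled points for adjusted p under 0.05. Serpina1a and Serpina1b lie to the left, down to -5.77, and Serpina3g in AB lies furthest to the right at 4.16.

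Alpha-1-antitrypsin is the main inhibitor of neutrophil elastase in blood plasma and is made chiefly by the liver. In the mouse it is encoded by several near-identical genes, among them Serpina1a and Serpina1b. Serpina1a lies on chromosome 12 at 103853589 to 103863562 on the minus strand, and Serpina1b at 103728156 to 103830373 by the coordinates in the authors' deposited tables, whose genome build is not stated. Each had 1 probe set, and a probe set of such a family need not tell its members apart.

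The 250 bases upstream of both genes are shown because the genes are close copies whose signals differed unequally in SL, described next. They are taken from RefSeq's GRCm38.p6 annotation, which held promoters for 6 of the 7 genes, and are written 5′ to 3′ on the gene's strand (minus). Capitals mark bases that differ or have no partner in an alignment of the pair, Serpina1a at chr12:103863620-103863869 and Serpina1b at chr12:103738190-103738439. By the authors' deposited coordinates the Serpina1b window lies inside that gene's span and not upstream of it. It need not be the promoter of the transcript measured.
Serpina1a: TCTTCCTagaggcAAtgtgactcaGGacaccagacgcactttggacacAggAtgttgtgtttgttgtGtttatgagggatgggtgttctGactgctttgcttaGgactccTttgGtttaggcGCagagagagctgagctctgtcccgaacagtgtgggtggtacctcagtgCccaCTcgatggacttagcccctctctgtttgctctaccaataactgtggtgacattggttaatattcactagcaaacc
Serpina1b: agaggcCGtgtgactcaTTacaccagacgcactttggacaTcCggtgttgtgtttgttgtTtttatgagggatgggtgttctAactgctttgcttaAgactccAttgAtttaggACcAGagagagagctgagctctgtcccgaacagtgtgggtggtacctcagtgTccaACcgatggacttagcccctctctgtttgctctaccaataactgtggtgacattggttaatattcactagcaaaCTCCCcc
Of 242 aligned bases 227 were identical, 15 were substituted, and each sequence had 8 bases without a partner. The longest identical run was 71 bases. Both hold GTTAAT, part of the recognition sequence of hepatocyte nuclear factor 1, starting 21 bases before the start in Serpina1a and 26 in Serpina1b. GTTAAT occurred on either strand in 6.43% of 32851 upstream windows of this length, and CCAAT, which both also hold, in 33.8%. A match is a description of letters and not of binding.

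Serpina1a read 9.01, 9.04, 9.48 and 9.19 on the 4 DN arrays and 7.96, 7.87, 8.70 and 7.61 on the A arrays. It read 3.96, 4.69, 5.49 and 5.20 in B, 3.71, 3.74, 3.58 and 4.28 in AB, and 4.64, 3.74, 4.69 and 3.895 in SL. Every DN array was above every A array, every A array was above all arrays of B, AB and SL, and the last 3 groups overlapped. As geometric means of intensity these are 580, 263, 28.5, 14.2 and 18.9. The low values are near the bottom of the table's range (log2 3.28), where background that was not subtracted could compress differences.

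Against DN, Serpina1a fell by 5.35 ± 0.292 in AB (40.8-fold, adjusted p = 3.7e-11), fell by 4.94 in SL (adjusted p = 1.03e-10) and fell by 4.34 in B (adjusted p = 8.06e-10). The last was the largest difference of any gene in that pair. It fell by 1.14 ± 0.292 in A (adjusted p = 0.0328), a call lost when a single DN array (replicate 1, 2, 3 or 4) or A array (replicate 1, 2 or 4) was removed, with adjusted p up to 0.122. The order of levels was DN, A, B, SL and AB, and neighbours from B downward did not differ beyond their spread: SL minus B was -0.59 (95% interval -1.2 to 0.0165) and SL minus AB 0.41 (-0.196 to 1.02). AB minus B was -1.01 (adjusted p = 0.122). With the replicate number as a block, AB was lower than B (adjusted p = 0.0393).

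Serpina1b read 11.18, 10.89, 10.93 and 11.43 in DN and 10.36, 10.72, 10.43 and 10.23 in A. It read 9.87, 9.29, 9.90 and 9.72 in SL, between those groups and the rest. In B the arrays were at 4.07, 7.90, 7.95 and 8.65, and in AB at 4.76, 4.40, 5.33 and 6.85. DN, A and SL did not overlap one another, B and AB overlapped, and B replicate 1 stood far below the other B arrays.

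Serpina1b fell by 5.77 ± 0.666 in AB against DN (54.7-fold, adjusted p = 5.82e-07) and fell by 3.97 in B against DN (adjusted p = 6.46e-05, with B minus DN at -2.94 without B replicate 1). It fell by 5.11 in AB against A and fell by 3.30 in B against A (adjusted p = 5.76e-06 and 0.00074). SL was higher than AB by 4.36 ± 0.666 (adjusted p = 0.000185) and higher than B by 2.55 ± 0.666 (adjusted p = 0.0137, or 0.0749 when only those 2 groups were fitted). Without B replicate 1, SL minus B was 1.53 and still called, and SL was also lower than DN (adjusted p = 0.00292). The spread of B (SD 2.08) was wide for that group, the share of genes with a lower SD rounding to 100%, and it enters the error shared by all groups. SL minus DN was -1.41 (95% interval -2.8 to -0.0217, adjusted p = 0.0919). Fitted on those 2 groups alone, SL was lower than DN at adjusted p = 5.33e-05. SL minus A was -0.74 (adjusted p = 0.425, or 0.0035 with the 2 groups alone), and A minus DN was -0.67 (adjusted p = 0.673).

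The 2 alpha-1-antitrypsin genes parted in SL. Serpina1b minus Serpina1a, taken array by array, ranged from 5.21 to 5.83 in SL, with a mean of 5.45 ± 0.296. In DN it was 1.93 ± 0.362, in A 2.40 ± 0.482, in B 2.30 ± 1.52 and in AB 1.5 ± 0.843. All 4 SL arrays lay above all arrays of each other group. Exact two-sided permutation tests of SL against each gave p = 0.0286, the smallest 4 against 4 arrays allow, and 0.0715 after adjustment over 10 pairs. This comparison was chosen after the separation in SL was seen, which fixes p at that minimum, so the values are a description. They set no level of one gene against the other.

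Chondrocyte markers moved with these genes: in AB, B and SL against DN 12 of 13 measured were lower and none higher, with medians of -2.74, -2.25 and -1.98. None was called in A against DN (median -0.21). Collagen X (Col10a1), the marker of hypertrophic cartilage, was at 12.34 in DN and 6.88 in AB. Col2a1 was called in no pair and lay between 13.13 and 13.39. That is near the top of the table's range (log2 13.63), where a difference may not show in full. Schwann cell markers moved the same way, with 7 of 7 lower in AB and B and 6 in SL. In SL, chondrocyte markers (8.99 to 9.27 by array) overlapped those of B (8.79 to 10.1) and AB (8.23 to 9.24), while Serpina1b did not overlap either group. On the B array with the low Serpina1b, the chondrocyte mean was 8.79, the lowest of the group. The part of these cells in the result was not tested.

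**Figure D3:**
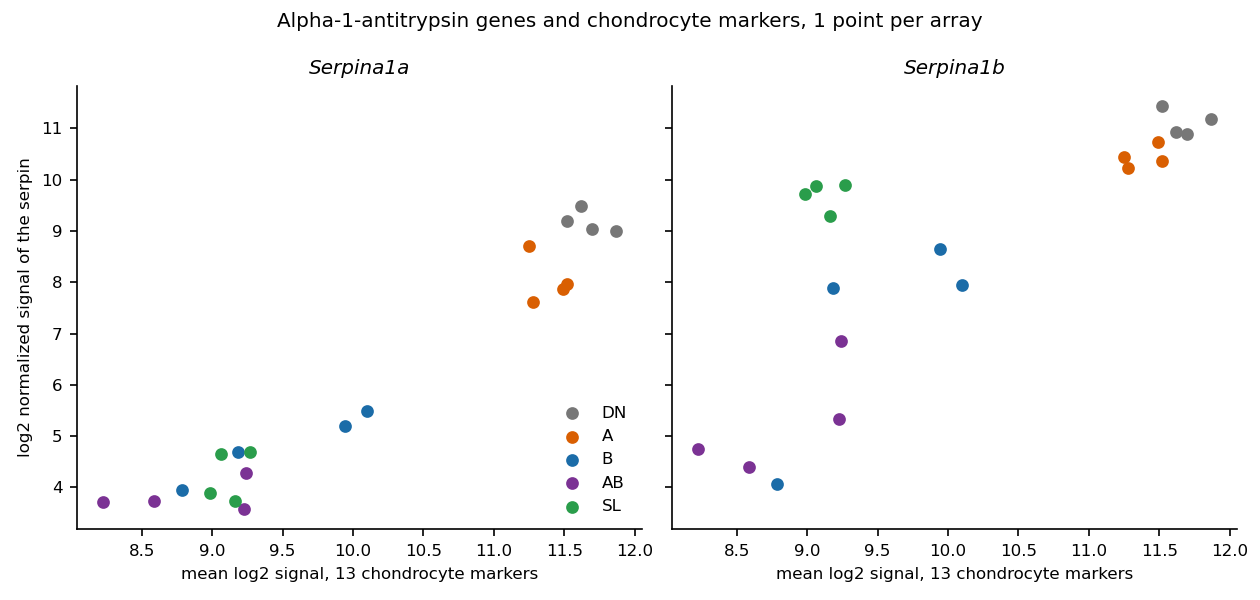
Log2 signal of Serpina1a and Serpina1b (vertical axes) against the mean of 13 chondrocyte markers (horizontal axis), 1 point per array coloured by group. The SL arrays lie with B and AB for Serpina1a but near 9.7 for Serpina1b.

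Over the 20 arrays the genes most like Serpina1a were Tnni2, Syt8 and Sox10 (Pearson r = 0.986, 0.985 and 0.985, or 0.624, 0.582 and 0.692 around the group means). Those most like Serpina1b were Cytl1, Hhip and Anxa8 (r = 0.948, 0.946 and 0.945, or 0.743, 0.883 and 0.773 around the group means). Cytl1 and Hhip, a cartilage cytokine-like protein and a hedgehog-binding protein, shared its intermediate SL level, at 11.56 and 9.96. Arrays of a group share their sorting gate, so these values describe likeness only. Of the neutrophil proteases that alpha-1-antitrypsin blocks, Elane and Prtn3 were higher in B than DN by 1.39 and 1.17 (adjusted p = 0.0195 and 0.0242) and Ctsg was not called. No other pair of groups differed in the 3 genes. All 3 belong to the neutrophil lineage list, of which 13 of 15 markers were higher in B against DN. In that pair 45.7% of all genes passed in either direction.

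Serpina3g, known in the mouse as an intracellular inhibitor of cysteine cathepsins, lies on chromosome 12 at 104236245 to 104241939 on the plus strand. Its 250 upstream bases are shown because it alone of the 7 genes passed the test in AB against B, at chr12:104235897-104236146 of GRCm38.p6, plus strand, 5′ to 3′, with TTCNNNGAA, the interferon-gamma activated sequence, in capitals.
Serpina3g: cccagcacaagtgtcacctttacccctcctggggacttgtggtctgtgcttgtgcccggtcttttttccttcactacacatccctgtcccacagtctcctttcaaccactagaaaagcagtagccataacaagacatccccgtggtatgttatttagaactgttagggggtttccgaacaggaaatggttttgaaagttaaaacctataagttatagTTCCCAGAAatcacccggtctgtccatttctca
TTCNNNGAA reads the same on both strands. It began 33 bases before the start, it was in no other of the 6 promoters, and 7.02% of 32851 windows hold it.

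Serpina3g read 8.13, 8.94, 7.98 and 8.21 in AB. It read 5.65, 4.95, 5.42 and 5.85 in B, 4.16, 4.44, 4.21 and 4.66 in A, 4.47, 4.01, 4.19 and 4.19 in SL, and 4.15, 4.14, 4.01 and 4.32 in DN. Every AB array was above every other array, every B array was above those of A, SL and DN, and the last 3 groups overlapped. In geometric mean intensity AB was at 318, B at 44.2 and the others at 17.8 to 20.6. By array AB ran from 252 to 491 and B from 30.9 to 57.7. If the authors' filter kept genes by their signal in any group, Serpina3g may have entered through AB alone. Its tests in AB and its ranks among the filtered genes would then not be independent of that filter.

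Serpina3g rose by 4.16 ± 0.193 in AB against DN (17.8-fold, adjusted p = 6.44e-12), by 3.95 against A and by 2.85 against B (7.19-fold, adjusted p = 5.25e-08), the second largest difference of any gene in AB against B. B was higher than DN by 1.31 and than A by 1.10 (adjusted p = 1.46e-05 and 0.000185). A minus DN was 0.21 (95% interval -0.193 to 0.614) and SL minus DN 0.0605 (-0.343 to 0.464). Along the gates, AB minus B exceeded A minus DN by 2.63 ± 0.273 (adjusted p = 6.6e-05), the second largest such interaction of 9129 genes. On the A and DN arrays the signal was near the bottom of the table's range (intensity 16.2 to 25.2), where a difference along the PDGFRa gate could not show in full. The size and rank of this interaction therefore do not measure how far the difference depended on PDGFRb. For the interaction 0.668% of all genes were called, and 3 of the 7 serpins: Serpina3g upward (0.23% of all genes), and Serping1 and Serpinf1 downward (0.438%).

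Marrow stromal reticular markers, 11 of 12 measured, were like Serpina3g highest in AB with B next. Their mean was 10.32 in AB (10.04 to 10.63 by array), 9.21 in B, 8.32 in SL, 8.27 in A and 7.47 in DN. Of the 11 markers 8 were higher in AB than B. Against DN, 7 were higher in A, and 8 were higher and 1 lower in SL. Serpina3g was called in neither of those pairs. Cxcl12 was at 12.54 in AB and Adipoq at 10.44. The part of such cells in the result was not tested. The genes most like Serpina3g were Esm1, Cbln1 and C6 (r = 0.987, 0.962 and 0.949 over 20 arrays, or 0.677, 0.518 and 0.470 around the group means). Esm1, an endothelial proteoglycan gene, was at 7.78 in AB and 3.86 to 4.84 elsewhere.

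Of the 8 cysteine cathepsins measured, the class Serpina3g inhibits, 6 were higher in AB than DN and none lower. In AB against B, where Serpina3g rose most against its nearest group, none was called. Ctsk, the collagen-cutting cathepsin K, was higher in B than DN by 1.31 ± 0.09, Ctsl in AB by 1.28, Ctsc in AB by 1.12 and Ctsb in SL by 0.74 (adjusted p at most 0.00294). Of 12 interferon response genes 8 were higher in AB than DN and none lower, and none was called between AB and B. Psmb8, an immunoproteasome subunit, was higher in AB than DN by 1.80, Psmb9 by 1.14, and Gbp2, a guanylate-binding protein, in SL by 2.19. Rsad2, an antiviral enzyme, fell by 1.49 in SL against B (adjusted p = 0.0173).

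Serping1 encodes the C1 inhibitor, which blocks the complement proteases that start the classical pathway. It lies on chromosome 2 at 84765387 to 84775444 and had 2 probe sets. The brighter read 9.55, 9.35, 9.92 and 9.61 in DN and 10.92, 10.56, 10.90 and 10.88 in A. It read 11.73, 11.65, 11.95 and 12.08 in B, 12.15, 12.28, 12.09 and 12.19 in AB, and 12.19, 11.85, 12.20 and 12.04 in SL. DN, A and the other groups did not overlap, AB lay above B, and SL overlapped with both.

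Serping1 was higher than in DN by 1.21 ± 0.124 in A (2.31-fold, adjusted p = 1.08e-05), 2.24 in B, 2.57 in AB (5.93-fold) and 2.46 in SL (adjusted p at most 1.42e-10 for these). The order was AB, SL, B, A and DN. AB minus B was 0.32 (95% interval 0.0637 to 0.583, adjusted p = 0.321), SL minus B 0.22 and SL minus AB -0.11 (-0.368 to 0.152). The PDGFRa difference was smaller with PDGFRb than without it, the interaction being -0.88 ± 0.176 (adjusted p = 0.023). That call did not hold without A replicate 1 or A replicate 4 (adjusted p up to 0.0597), without the replicate 1 arrays of B and AB (a setting chosen after seeing the data), with B and AB reduced to their replicates 1 and 2 (0.173) or with the neutrophil marker mean as a covariate (0.119). With each probe set tested by itself, the second was not called in this interaction (-0.80, adjusted p = 0.109). Both probe sets were called in the same 7 pairs, with AB minus DN of 2.57 and 2.86.

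Of 18 symbols listed for the C1 inhibitor's targets and the classical pathway, old and new names included, 5 were measured. All 5 were higher in AB and in SL than in DN, with medians of 2.76 and 2.30. C1s1, a protease of the C1 complex, rose by 4.13 ± 0.301 in SL (adjusted p = 1.54e-09), C2 by 2.92 in AB, C1ra by 2.76 in AB and C3 by 2.30 in SL. C2 and C4b were higher in AB than B, by 1.53 and 1.40 (adjusted p = 8.17e-05 and 0.0381). The genes most like Serping1 were Igf1, Igfbp4 and Ifngr1 (r = 0.980, 0.978 and 0.975, or 0.360, 0.504 and 0.430 around the group means). Igf1, a growth factor, was at 9.06 in DN and 11.88 in AB.

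Serpinf1 encodes pigment epithelium-derived factor, a secreted serpin that does not inhibit proteases and whose loss in humans causes a brittle bone disease with poor mineralization. It lies on chromosome 11 at 75409769 to 75422701 and had 5 probe sets. The brightest read 11.27, 11.31, 11.20 and 11.22 in DN, 12.03, 11.90, 11.93 and 11.90 in A, and 12.74, 12.64, 12.51 and 12.41 in B. It read 12.56, 12.44, 12.55 and 12.53 in AB and 12.44, 12.22, 12.30 and 12.45 in SL. DN lay below A, A lay below all arrays of B, AB and SL, and those 3 overlapped.

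Serpinf1 was higher than in DN by 0.69 ± 0.0815 in A (adjusted p = 4.45e-05), 1.32 in B (2.50-fold), 1.27 in AB and 1.10 in SL (adjusted p at most 1.82e-09). It was higher in B, AB and SL than in A by 0.63, 0.58 and 0.41. The order was B, AB, SL, A and DN, and AB minus B was -0.0553 (95% interval -0.226 to 0.115) and SL minus B -0.22 (adjusted p = 0.0884). The PDGFRa difference was smaller with PDGFRb, by -0.74 ± 0.115 (adjusted p = 0.00359). All 5 probe sets were called in this interaction (-0.99 to -0.74) and in AB against DN (1.27 to 1.77). In AB against DN the brightest gave the smallest value and the dimmest the largest. Compression of bright signals toward the top of the table's range (log2 13.63) was not tested. The dimmest, at 11.15 in B and 11.10 in AB, gave -0.89 in the interaction. The genes most like it were Marcks, Adamts2 and Vstm4 (r = 0.973, 0.972 and 0.970, or 0.417, 0.471 and 0.681 around the group means). Adamts2, the procollagen N-propeptidase, was at 8.85 in DN and 11.09 in AB.

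**Figure D4:**
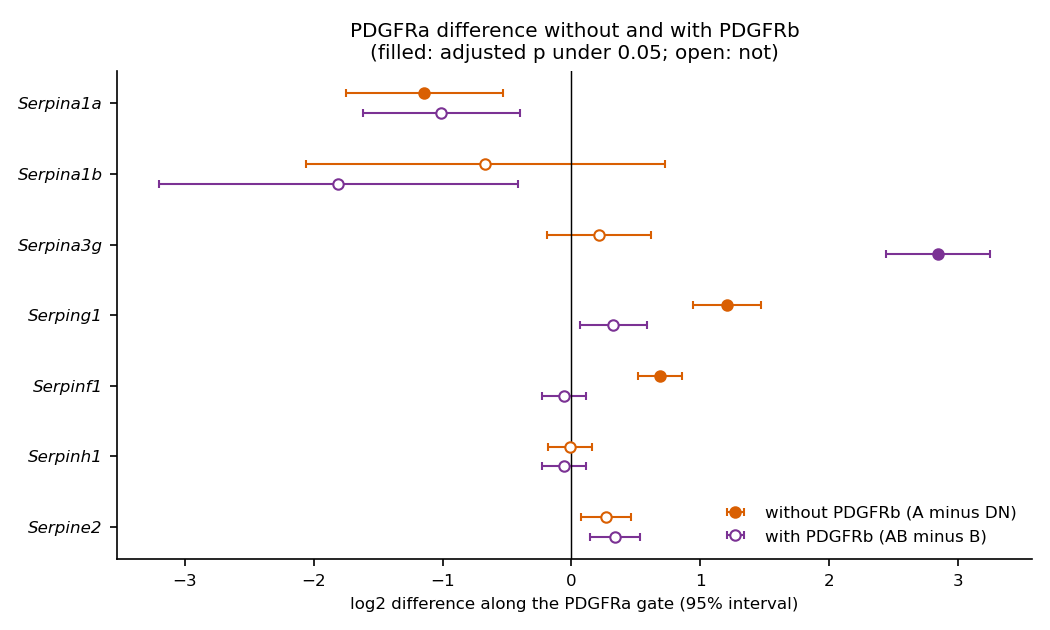
Log2 difference along the PDGFRa gate (horizontal axis, 95% interval) without PDGFRb (A minus DN) and with it (AB minus B), filled where adjusted p is under 0.05. Serpina3g is called with PDGFRb, at 2.85, and is at 0.21 without it, while Serping1 and Serpinf1 have the larger difference without it, at 1.21 and 0.69; DN is read as PDGFRb-negative.

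Averaged over both PDGFRb states, the PDGFRa gate called 5 of the 7 serpins, beside 3.66% of all genes. Serpina3g was higher by 1.53, Serping1 by 0.76, Serpinf1 by 0.32 and Serpine2 by 0.30, and Serpina1a fell by 1.08 (adjusted p at most 0.00995). These averages can hide unequal parts. For Serpina3g only AB minus B was called (2.85, beside 0.21 for A minus DN). For Serping1 and Serpinf1 only A minus DN was called (1.21 and 0.69, beside 0.32 and -0.0553 for AB minus B). For Serpine2 neither was called (0.27 and 0.34). With B and AB reduced to replicates 1 and 2, Serpinf1's average was 0.25 and no longer passed (adjusted p = 0.0684).

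Serping1 and Serpinf1 followed each other over the 20 arrays (r = 0.943) but not around the group means (r = -0.312), so their likeness lies between groups. Of the reported cell-surface partners of pigment epithelium-derived factor, 4 of 5 were measured. Against DN, 3 were higher in AB, 3 in SL and 2 in B, and none was lower. In B against A 1 was higher and 1 lower. Each partner is given for its largest called difference. Plxdc2 was higher in SL than DN by 1.18 ± 0.0943 (adjusted p = 5.09e-09), Plxdc1 in SL than B by 1.59, Pnpla2 in B than DN by 0.60 and Lrp6 in AB than DN by 0.45 (adjusted p at most 0.0056 for these).

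Serpine2 encodes protease nexin 1, an inhibitor of thrombin and of plasminogen activators at the cell surface. It lies on chromosome 1 at 79794197 to 79861180. It read 11.66, 11.63, 11.60 and 11.85 in DN, 12.05, 12.02, 11.84 and 11.91 in A, and 11.99, 12.18, 11.90 and 12.13 in B. It read 12.35, 12.58, 12.39 and 12.22 in AB and 12.22, 12.18, 12.33 and 12.33 in SL. AB and SL lay above all DN, A and B arrays and overlapped each other, and A overlapped with DN and with B.

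Serpine2 was higher than in DN by 0.70 ± 0.0924 in AB (1.63-fold, adjusted p = 3.31e-06), 0.58 in SL and 0.37 in B (adjusted p = 3.83e-05 and 0.00307). It was higher than in A by 0.43 in AB and 0.31 in SL (adjusted p = 0.00116 and 0.0151). The order was AB, SL, B, A and DN. SL minus AB was -0.12 (95% interval -0.316 to 0.0702), SL minus B 0.21 (adjusted p = 0.167), B minus A 0.0948 (-0.0984 to 0.288) and A minus DN 0.27 (adjusted p = 0.124). AB minus B was 0.34 (adjusted p = 0.0933). The genes most like it were Igfbp4, Gbp2 and Hfe (r = 0.919, 0.916 and 0.910, or 0.664, 0.599 and 0.406 around the group means).

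Among 9 measured genes of plasminogen activation and thrombin signalling, 6 were higher and 1 lower in AB than DN, and likewise in SL. Plat, the tissue plasminogen activator that Serpine2 inhibits, was higher in AB by 1.59, and F2r, the thrombin receptor, in B by 2.12 (adjusted p at most 5.06e-09). Prss23, a secreted protease, rose by 2.85 ± 0.141 in SL, and Procr and Thbd, the protein C receptor and thrombomodulin, by 2.02 and 1.94. F3, tissue factor, was the lower gene and fell by 1.85 in B (adjusted p = 1.72e-07). Of 6 receptors for serpin complexes 2 were higher and 2 lower in AB than DN, beside 24.7% and 21.4% of all genes. Lrp8 fell by 1.82 there, Sorl1 was higher in B than DN by 0.90 and Vldlr in SL than DN by 0.54.

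Serpinh1 encodes the collagen chaperone of the endoplasmic reticulum and lies on chromosome 7 at 99345376 to 99353239. It read 11.998, 11.74, 11.82 and 11.86 in DN, 11.96, 11.80, 11.78 and 11.85 in A and 11.82, 11.71, 11.66 and 11.62 in B. It read 11.74, 11.65, 11.52 and 11.66 in AB and 11.79, 11.60, 11.60 and 11.67 in SL. DN overlapped with all other groups and A with all but AB.

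The order was DN, A, B, SL and AB, and no neighbours differed beyond their spread. Serpinh1 fell by 0.21 ± 0.0818 in AB against DN (1.16-fold, adjusted p = 0.0398). This was lost with only those 2 groups in the fit (adjusted p = 0.119), with B and AB reduced to replicates 1 and 2 (0.247), and when a single DN array (1, 3 or 4) or AB array (2, 3 or 4) was removed (up to 0.127). Its 95% interval ran from -0.383 to -0.0413. AB minus A was -0.20 (adjusted p = 0.0637). With the replicate number as a block, AB was lower than A at adjusted p = 0.0222. AB against A was also called with quantile normalization and with an intensity trend and robust prior. The average along the PDGFRb gate was -0.18 ± 0.0578 (adjusted p = 0.0144), where all 7 serpins and 53.1% of all genes were called, and 0.199 with B and AB reduced to replicates 1 and 2.

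Collagen genes moved in both directions around it. Of 28 collagens 12 were higher and 9 lower in AB than DN, and Col1a1, the main collagen of bone, was higher by 0.28 (adjusted p = 0.00713). Col10a1 fell by 5.46 and Col9a2, also of cartilage, fell by 3.17, and Col14a1 and Col5a3 were higher in SL than DN by 2.69 and 2.60. Of 26 genes that fold or modify collagen in the endoplasmic reticulum or process it, 6 were higher and 13 lower in AB than DN, with a median of -0.25 against 0.0385 over all genes. P3h2, P4ha2 and Plod2, which hydroxylate proline or lysine, differed from DN by -2.43 in SL, -1.53 in AB and -1.52 in AB (adjusted p at most 5.75e-10). P4ha3 was higher in B by 1.81. The genes most like Serpinh1 were Fkbp11, Kdelr3 and P4ha1 (r = 0.911, 0.889 and 0.873, or 0.902, 0.748 and 0.752 around the group means).

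**Figure D5:**
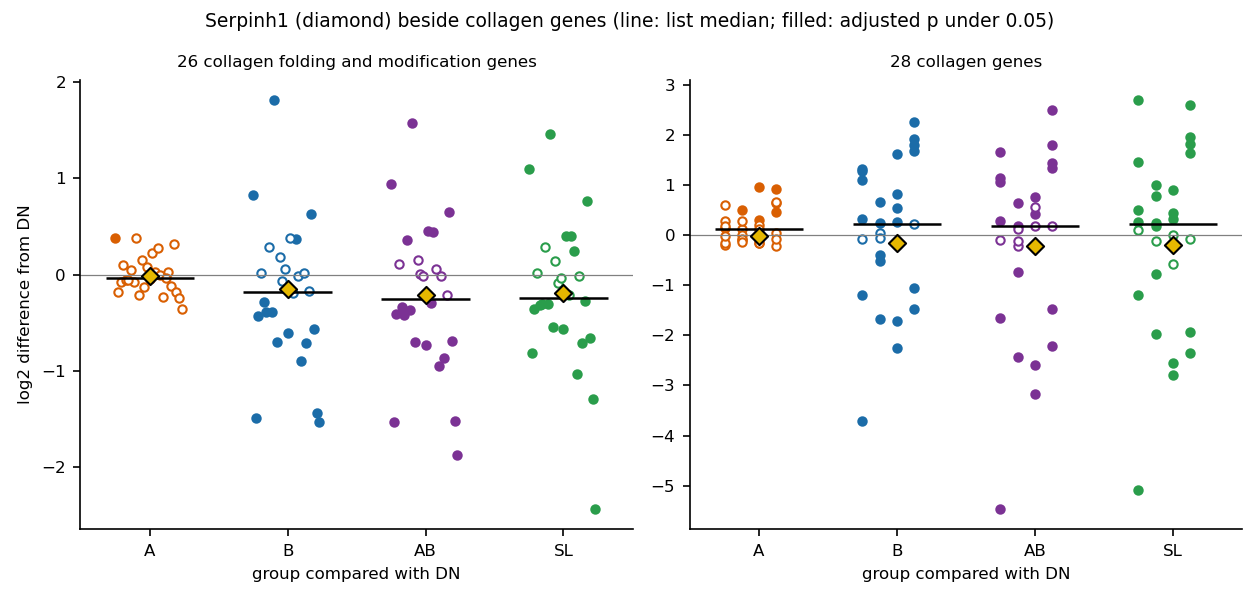
Log2 difference from DN (vertical axis) of 26 collagen folding and modification genes and 28 collagen genes in groups A, B, AB and SL (horizontal axis), with list medians as lines, filled points for adjusted p under 0.05 and Serpinh1 as a diamond. Serpinh1 stays between -0.01 and -0.21 while the genes around it spread over several log2 units.

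Other serpin genes of the filtered table were described beside the 7. Serpina3n, of the same clade as Serpina3g, was also highest in AB (8.34 ± 0.452) and was higher there than in B by 1.53 ± 0.297 (adjusted p = 0.00744). Serpinb8 and Serpinb6a were higher in SL than DN by 1.30 and 0.61 (adjusted p = 2.69e-06 and 0.000932).

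The authors' deposited tables hold 5 of the pairs and 30 values for these genes, each for 1 chosen probe set. For Serping1 and Serpinf1 in the pairs without DN, that probe set was not the one standing for the gene here. For Serpina3g, AB against B ranked 1st by p among 8290 rows, with B minus AB of -2.85 (q = 0.00226) in the authors' deposited table. The direction was the same for all 30 values in the authors' deposited tables, and the side of the threshold for 26. The other 4 were called there and not here: Serpina1b in A and in SL against DN (q = 0.0392 and 1.4e-05 in the authors' deposited tables), and Serpinh1 in AB against A and in SL against DN (q = 0.0496 and 0.0458 in the authors' deposited tables). These Serpinh1 q-values lay below the authors' own p-values for the same rows (0.0507 and 0.0810). A Benjamini-Hochberg value cannot lie below its p-value, so the authors' q and the adjusted p used here are unlike measures.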

How the data were processed

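RNA of the sorted cells was labelled with biotin and read on arrays, per the labels. The authors' deposited series table gives normalized log2 signal (24539 probe sets, 3.28 to 13.63), and 12440 of them reappear in the authors' deposited filtered table as linear intensity, within log2 0.0075. How they were normalized, background-corrected and filtered was not stated in the labels or headers, and no detection call was available. The filtered table's name carries FiltANY, whose rule was not spelled out. The authors' deposited comparison tables give log2 differences, p-values and q-values per the file headers. Log2 values of filtered probe sets with a symbol were fitted with limma 3.58.1 in R 4.3.3 as 5 group means over 20 arrays (15 residual and 4.34 prior degrees of freedom). Tests were two-sided, adjusted by Benjamini-Hochberg over 9129 genes per contrast at 0.05. The probe set with the highest mean stood for each of 2431 genes with several. On simulated data for A against DN over 9129 genes, 90% of genes changed by log2 1 and 42% of those changed by 0.5 were called. Promoters were aligned with Biopython 1.88.

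The members and lists were chosen with earlier results of these data known. Named genes were the 7 members, up to 6 other serpins, up to 4 called genes per list with the largest difference, up to 3 markers per cell type list and the 3 genes most correlated with each member. Ctsg, C4b, Plat, F3, Col1a1 and Col2a1 outside that rule were named after their values were seen, as were the promoter motifs. For AB with A and AB with B, residuals of every same-numbered pair of arrays correlated above 0.1 (0.185 to 0.398 and 0.17 to 0.422). The main fit still used no pairing and no replicate block, so its p-values treat these arrays as unpaired. Results with the replicate block are named as such. Alternatives are given in the closing section. Results for some genes are not reported here.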

Additional observations from a re-analysis of the deposited data

Results flagged for a closer look

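In group B, the Serpina1b signal of replicate 1 was 4.067, far below the other 3 arrays. In group A, the Serping1 signal of replicate 2 was 10.564, below the other 3. Both gaps passed Dixon's 95% value for the gap within 4 samples. Of 35 combinations of gene and group 2 passed, and chance gives about 1 in 20. The difference along the PDGFRa gate was unequal with and without PDGFRb for 3 genes by limma's interaction test: Serpina3g at 2.63 (its A and DN signals near the bottom of the table's range), Serping1 at -0.883 and Serpinf1 at -0.744.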

How the results depend on the processing

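30 settings were tried, 20 of them leaving out 1 array, beside the authors' tables. Fitting only the 2 groups compared applies to pairs and not to gate averages or interactions. Of 55 single differences called, 49 were called under every setting run for them, 6 were lost under at least 1, and 11 uncalled ones were called under some; no called difference changed sign. The serpins called in AB against B were 2 in place of 1 with an intensity trend and robust prior, with the replicate block, and without the replicate 1 arrays of B and AB (a setting chosen after seeing the data), and 1 to 3 when 1 array was left out: 3 without B replicate 1 and 2 without AB replicate 4. In SL against B 1 was called in place of 2 with only those groups fitted. Without B replicate 1, Serpina1b fell by 2.83 in AB against B (adjusted p = 0.000408). Serpinf1's average along the PDGFRa gate (0.32) was 0.25 with B and AB reduced to replicates 1 and 2 (adjusted p = 0.0684), and Serpina1a in A against DN missed the threshold over all probe sets of the series table (0.0627), also a setting chosen after seeing the data. With the replicate block Serpinh1 was also lower in SL than DN and A (adjusted p = 0.0244 and 0.0394). In those pairs same-numbered residuals did not all correlate above 0.1. Serpinh1 in SL against DN was called too with quantile normalization, with an intensity trend and robust prior, and without DN replicate 2 or SL replicate 1. The planned test on probe sets outside the filtered table that carry a symbol found none. The causes were not tested. The 4 arrays per group limit precision. Low signals and those near the top of the range may be compressed, which was not tested.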
